A study of Mus musculus with 5 samples.

Results

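The adventitial fibroblast surface markers are 7 genes, Cd34, Pi16, Cd81, Ly6a, Dpp4, Thy1 and Pdpn, of 20355 genes counted in the series. They were chosen by symbol, and all 7 symbols were present in the count tables of all 5 collections. Mouse colonic mesenchyme was profiled by Drop-seq, a droplet method that labels each captured polyadenylated transcript with a unique molecular identifier (UMI) and reads it near its 3′ end. Every collection came from untreated C57/BL6 mice aged 10 weeks. The epithelium was first removed with EDTA and DTT, and Collagenase XI and Dispase then freed the remaining cells. Biological replicate 1 gave collections 1A and 1B, while 2A, 2B and 2C were collected from biological replicate 2. With no treated group, the comparisons are between kinds of cell taken from the same suspensions. The labels do not say how many mice gave each replicate. The tests take out the shift between replicates, so p-values measure how far differences between kinds of cell varied over these 2 replicates only. For 3 of the 7 genes, Cd34, Pi16 and Cd81, the level in adventitial-like fibroblasts was above that in the other fibroblasts. Ly6a, Thy1 and Pdpn were found at similar or higher levels in other fibroblast states, and Dpp4 had too few UMIs to pass the filter of the test.

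The adventitia is the outer connective tissue around vessels and hollow organs, and its fibroblasts are usually recognised by cell surface proteins. Cd34 is a sialomucin of stromal cells, vascular endothelium and blood progenitors. Pi16, peptidase inhibitor 16, is a membrane-anchored member of the CAP protein family. Cd81 is a tetraspanin, a protein with several membrane passes that organises partner proteins in the plasma membrane. Ly6a and Thy1 are small proteins held in the membrane by a glycolipid anchor. Dpp4 is a serine peptidase that trims short N-terminal pieces from chemokines such as Cxcl12. Pdpn, podoplanin, is a mucin-like protein of fibroblasts and lymphatic endothelium and the ligand of the platelet receptor Clec1b. No one of these proteins belongs to fibroblasts alone, and sorting schemes therefore combine them.

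The DNA before the start sites of 3 members is shown because Cd34 and Cd81 were higher together in the adventitial-like states and Dpp4 was found among fibroblasts only there. Ebf1, a transcription factor whose family binds a palindrome with the core CCCNNGGG, was itself among the 10 leading genes of one adventitial-like state. It reached 519 and 386 CPM (UMIs of a gene per 1000000 UMIs of the summed cells) in the 2 adventitial-like states, against 6.52 to 19.2 CPM in the 6 others. Outside fibroblasts it was also present, at 606 CPM in pericyte-like, 549 CPM in B cell-like and 284 CPM in blood endothelial-like cells. Capitals mark each match to that core on either strand. The sequences are RefSeq's for GRCm38.p6, read 5′ to 3′ on the gene's strand, and end where the annotated gene begins.
Cd34, chr1:194938571-194938818, plus strand: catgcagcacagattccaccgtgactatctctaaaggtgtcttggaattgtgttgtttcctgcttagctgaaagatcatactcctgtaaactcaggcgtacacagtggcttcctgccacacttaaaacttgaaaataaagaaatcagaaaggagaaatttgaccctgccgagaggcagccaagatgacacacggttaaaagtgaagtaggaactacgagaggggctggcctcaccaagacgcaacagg
Cd81, chr7:143052500-143052738, plus strand: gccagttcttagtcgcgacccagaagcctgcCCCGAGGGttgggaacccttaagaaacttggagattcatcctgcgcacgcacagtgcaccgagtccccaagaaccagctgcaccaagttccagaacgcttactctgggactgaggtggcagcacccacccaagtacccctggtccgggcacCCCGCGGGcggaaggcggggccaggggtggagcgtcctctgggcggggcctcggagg
Dpp4, chr2:62412232-62412481, minus strand: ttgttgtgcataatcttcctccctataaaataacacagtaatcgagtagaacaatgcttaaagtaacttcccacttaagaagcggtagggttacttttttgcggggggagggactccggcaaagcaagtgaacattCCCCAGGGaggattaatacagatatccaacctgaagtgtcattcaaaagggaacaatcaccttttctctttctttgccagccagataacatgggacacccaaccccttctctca
Cd81 held 2 matches in its 239 bases, Dpp4 held 1 in 250 and Cd34 held 0 in 248. The core was found in the windows of 3150 of 27025 genes, or 11.7%. Pdpn was searched too and held no match. The window of Pi16 held none either, but most of that window lies past the annotated start of the gene, so little of the DNA before Pi16 was searched. Ly6a and Thy1 were named only. A match is a run of letters, and binding was not measured.

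The 5 tables held 7935 barcodes, of which 1263 had fewer than 300 genes and 667 had more than 10% mitochondrial UMIs. After those filters and doublet removal 5982 cells were retained, 860 to 1726 per collection, with a median of 1330 UMIs and 756.5 genes. Total UMIs per collection ran from 1636550 to 3345732. Across pairs of collections 10 cell barcodes were shared, 7 of them between 2A and 2B. Clusters were made with the 7 genes and 70 related surface genes left out, so that the members did not define them, and were named "-like" from marker genes. Fibroblast-like cells numbered 3123, blood endothelial-like cells 572 and lymphatic endothelial-like cells 166. The fibroblast-like cells formed 8 states. F5 (341 cells) and F6 (257 cells) were adventitial-like: each raised 8 of 9 markers of the list led by Has1 and Pcolce2. Has1, Pcolce2, Ugdh, Fbn1, C3 and Gfpt2 were higher in both F5 and F6 than in every other state. Clec3b, Mfap5 and Tnxb were not. Clec3b was at 773 CPM in F5 and 1382 CPM in F2, Mfap5 at 403 and 626 CPM in the same states, and Tnxb at 231 CPM in F5 and 362 CPM in F8. Has1, which makes hyaluronan, reached 3001 CPM in F5 and 941 CPM in F6, against 16.6 to 113 CPM in the other states. Adamdec1, a secreted protease of intestinal fibroblasts, was at 134 and 328 CPM in F5 and F6 and at 3522 to 5776 CPM elsewhere. F2 (593 cells) and F8 (159 cells) were like the Cd248- and Stmn2-marked state, F3 (415) was inflammatory-like, F4 (359) subepithelial-like and F7 (239) telocyte-like. Cd248 itself was at 248 CPM in F2 and 288 CPM in F8, and also at 280 CPM in F6. F1 (760 cells) is called here by its leading genes Clu and Cxcl13, because its marker name did not hold in 3 of the 4 other clusterings.

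**Figure D1:**
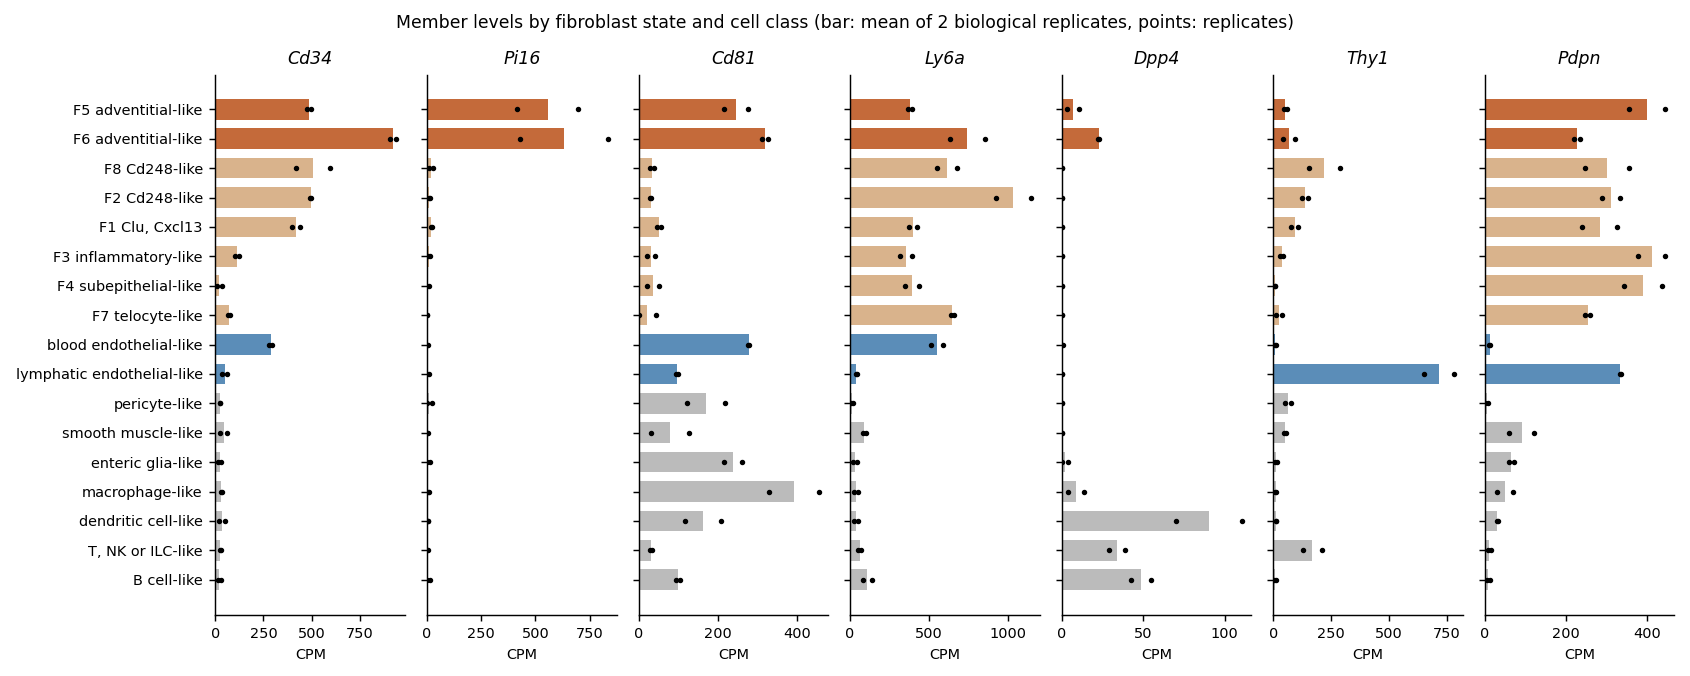
Level of each member (CPM, horizontal axes, one scale per gene) in the 8 fibroblast states and 9 other cell classes; bars are the mean of 2 biological replicates and points the replicates. Pi16 stands at 416 CPM or more in F5 and F6 and at 28.2 CPM or less in the other fibroblast states, whereas Ly6a and Pdpn are spread over all 8 fibroblast states and Thy1 is highest in lymphatic endothelial-like cells.

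Pi16 was the member most restricted to the adventitial-like states. In F5 and F6 together it stood at 439, 399 and, in replicate 2, 858, 618 and 760.2 CPM in collections 1A, 1B, 2A, 2B and 2C. In the other fibroblasts it stood at 9.70, 8.47, 15.8, 8.56 and 16.3 CPM. The lowest adventitial-like value was far above the highest value elsewhere, and the 3 collections of replicate 2 all exceeded the 2 of replicate 1. The means were 585 ± 233 CPM (SD, n = 2 replicates) and 11.5 ± 3.23 CPM. Of 650 Pi16 UMIs in all retained cells, 583 (89.7%) came from F5 and F6 and 96% from fibroblast-like cells. F5 and F6 each carried it, at 416 and 698 CPM and at 427 and 833 CPM in replicates 1 and 2, while F7 had no Pi16 UMI.

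Cd34, the stromal and vascular sialomucin, was higher in the adventitial-like states but not limited to them. It stood at 657, 663, 751, 518 and 680.1 CPM in F5 and F6 together, in collections 1A, 1B, 2A, 2B and 2C. In the other fibroblasts the same collections gave 296, 259.9, 287, 303 and 289 CPM. Every adventitial-like value exceeded every other value, with means of 657 ± 4.38 and 287 ± 8.46 CPM (SD, n = 2). By state, Cd34 ran in the order F6, F8, F2, F5, F1, F3, F7 and F4. F6 stood apart at 909 and 939.5 CPM in the 2 replicates. F8 (421 and 598 CPM), F2 (499 and 494 CPM), F5 (497 and 477 CPM) and F1 (440.02 and 400.3 CPM) were close, and the replicate range of F8 overlapped those of F2, F5 and F1. Cd34 then dropped to 100.2 to 120.2 CPM in the inflammatory-like F3, to 64.6 and 77.6 CPM in the telocyte-like F7 and to 6.44 and 35.6 CPM in the subepithelial-like F4.

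Cd81, the tetraspanin, followed Pi16 among fibroblasts. It was found at 262, 256, 280.2, 273 and 320.1 CPM in F5 and F6 together in collections 1A, 1B, 2A, 2B and 2C, and at 32.3, 41.0, 38.8, 39.4 and 37.5 CPM in the other fibroblasts. No value of the one group reached the other, and the means were 275 ± 22.1 and 37.3 ± 1.76 CPM (SD, n = 2). F6 (326 and 313 CPM) and F5 (216 and 276 CPM) led, and no other state passed 55.9 CPM in either replicate. Of the 6 other states, F1 (45.6 to 55.9 CPM over the 2 replicates) lay above F2, F3, F7 and F8 and overlapped F4, and the replicate ranges of the other 5 overlapped each other.

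These differences were tested with edgeR's quasi-likelihood test on UMI sums per replicate and state, with the replicate as a block and Benjamini-Hochberg adjustment over 6438 genes. The contrast sets the mean of F5 and F6 against the mean of the 6 other states on the log scale. Of the 6 members tested, 3 were called higher and 0 lower, where 17.8% of all genes tested were called higher and 14.4% lower. Cd34 was higher by 2.10 ± 0.11 (log2 fold change ± SE, edgeR adjusted p = 1e-45). This fold weighs all states alike, F4 at 21.0 CPM among them, and is larger than the difference of the pooled levels, 657 against 287 CPM. Cd81 was higher by 3.05 ± 0.18 (edgeR adjusted p = 1.1e-41). Pi16 was higher with an edgeR adjusted p of 6.9e-89, and no fold is given because F7 had 0 UMIs. Pi16 passed the filter on low counts only through F5 and F6, as no other state exceeded 28.2 CPM in either replicate. Its calls between states could therefore hardly have gone the other way and add no support to its levels. Against each of the 6 states taken singly, Cd34, Cd81 and Pi16 were each called higher, where 12.2% (F1), 17.8% (F2), 7.58% (F3), 10.8% (F4), 13.3% (F7) and 7.94% (F8) of genes were. Cd34 was so by the smallest margin against F8 (0.46 ± 0.16, edgeR adjusted p = 0.029). These contrasts too take the mean of F5 and F6. For Cd34, F5 alone (487 CPM) did not exceed F8 (510 CPM) or F2 (496 CPM), and it was not tested against single states. Ly6a (0.07 ± 0.10, edgeR adjusted p = 0.65), Pdpn (-0.03 ± 0.12, edgeR adjusted p = 0.89) and Thy1 (0.24 ± 0.25, edgeR adjusted p = 0.51) were not called. The sign of the Pdpn value was positive under 10 of the alternatives tried. When the clusters were made at resolution 0.5, Thy1 was called higher by 1.49. Beside these results, mesothelial markers (Msln, Upk3b, Upk1b, Wt1 and Lrrn4) had UMIs for all 5 genes in F6, summing to 55.1 and 72.7 CPM in the 2 replicates, and 0 UMIs in F5. Those UMIs lay in 7 of the 257 F6 cells. With every cell that carried one left out, an alternative added after seeing the data, Cd34 was higher by 2.14 and Cd81 by 3.06, and the counts of members called were again 3 and 0.

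**Figure D2:**
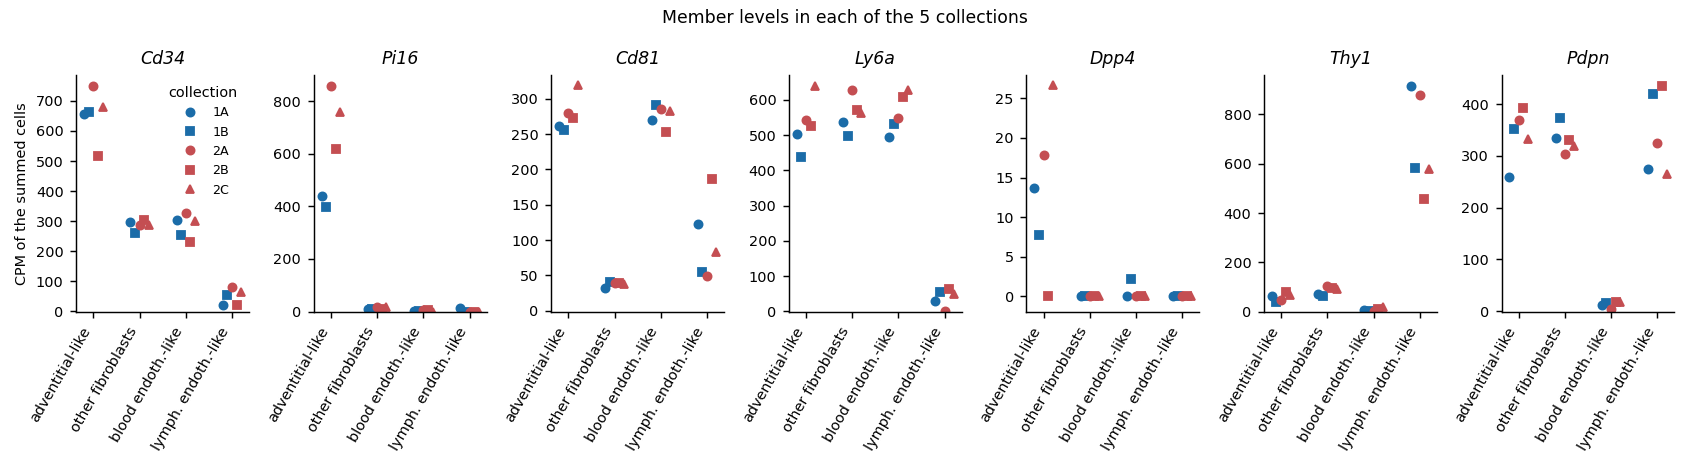
Level of each member (CPM, vertical axes, one scale per gene) in each of the 5 collections, in adventitial-like cells (F5 and F6), the other fibroblasts, and blood and lymphatic endothelial-like cells; blue marks replicate 1 and red replicate 2. For Cd34, Pi16 and Cd81 all 5 adventitial-like points lie above all 5 points of the other fibroblasts, and for Ly6a, Thy1 and Pdpn the points of those groups intermingle or nearly do.

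The lipid-anchored Ly6a was a general fibroblast transcript in these cells. In F5 and F6 together it stood at 504, 438, 542, 525 and 640.1 CPM in collections 1A, 1B, 2A, 2B and 2C, and in the other fibroblasts at 538, 497, 627, 570.3 and 563 CPM. The ranges overlapped, with means of 521 ± 67.2 and 555 ± 48.5 CPM (SD, n = 2). The highest state was F2 (922 and 1142 CPM), followed by F6 (634 and 850.03 CPM), F7 (656 and 637 CPM) and F8 (673 and 547 CPM), whose ranges overlapped. F1, F4, F5 and F3 lay between 317 and 436 CPM and were not ordered beyond their spread. Against single states the adventitial-like cells were called lower for Ly6a than F2 (-0.75 ± 0.12, edgeR adjusted p = 1.1e-07; 16.6% of genes called lower) and higher than F1, F3 and F4, and neither for F7 and F8.

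Thy1, the other lipid-anchored protein, was low in most fibroblasts and peaked outside the adventitial-like states. It stood at 64.7, 38.8, 47.7, 79.8 and 66.7 CPM in F5 and F6 together in collections 1A, 1B, 2A, 2B and 2C, and at 72.2, 63.6, 103, 97.6 and 93.0 CPM in the other fibroblasts. Within each collection the adventitial-like value was the lower, although the ranges overlapped. F8 (155 and 288 CPM) and F2 (125 and 152 CPM) led, F1 followed at 77.8 and 109 CPM, and F4 had 6.46 and 6.44 CPM. The pooled level of the other fibroblasts was thus above that of the adventitial-like cells while the fold was slightly positive. The pooled level is taken over the cells of all 6 states, whereas the fold averages log2 levels over states, of which F4 was the lowest. Taken singly, adventitial-like cells were called lower for Thy1 than F8 (-1.81 ± 0.29, edgeR adjusted p = 9.2e-08; 8% of genes called lower) and F2 (-0.99 ± 0.27, edgeR adjusted p = 0.0016), and higher than F4 (3.07 ± 0.57, edgeR adjusted p = 1.7e-06).

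Pdpn, podoplanin, was present in all 8 states, and F5 and F6 lay near opposite ends of its range. In F5 and F6 together it stood at 259, 353, 369.6, 392 and 333 CPM in collections 1A, 1B, 2A, 2B and 2C, and in the other fibroblasts at 335, 373, 303, 330.5 and 319.8 CPM. The ranges overlapped and the means, 334 ± 44.2 and 334 ± 24.5 CPM (SD, n = 2), were alike. By state the levels ran from 412 CPM in F3, 401 CPM in F5 and 390.4 CPM in F4 to 254 CPM in F7 and 228 CPM in F6. Adventitial-like cells were called lower for Pdpn than F3 (-0.57 ± 0.16, edgeR adjusted p = 0.0025; 12.7% of genes called lower) and F4 (-0.43 ± 0.16, edgeR adjusted p = 0.032; 14.4%), and neither higher nor lower than the other 4 states.

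Dpp4, the peptidase, was barely sampled. It had 91 UMIs in all retained cells, and 13 of them lay in fibroblast-like cells, 9 in F6 and 4 in F5. The other fibroblasts had 0 in 3529293 UMIs, which allows up to 0.85 CPM at a floor of 3 counts. In F5 and F6 together the level was 13.6, 7.80, 17.9, 0 and 26.7 CPM in collections 1A, 1B, 2A, 2B and 2C, so that 1 of the 5 collections had none. The mean of 12.9 ± 2.88 CPM (SD, n = 2) rests on those 13 UMIs. Fitted with no filter on low counts, Dpp4 was called higher in the adventitial contrast (edgeR adjusted p = 0.00039), with no fold given against 0 UMIs. Of the 9 Dpp4 UMIs in F6, 5 lay in the 7 cells that also carried mesothelial marker UMIs, and without those cells F6 stood at 10.6 CPM in place of 22.7 CPM. In the same step Pi16 in F6 went from 610.2 to 639 CPM, since none of its 242 UMIs lay in those cells. The larger Dpp4 levels were found outside the fibroblasts, at 70.3 and 111 CPM in dendritic cell-like cells, 42.6 and 54.8 CPM in B cell-like cells and 29.1 and 39.0 CPM in T, NK or innate lymphoid-like cells. All 3 of those classes were called higher for Dpp4 than the mean of the other classes (edgeR adjusted p = 1.9e-13, 1.1e-05 and 1.3e-05 in that order), where 18.3% to 23.1% of genes were called higher. These calls rest on 29, 13 and 18 UMIs in the same order. Dpp4 passed the filter of that fit only through sums of dendritic cell-like and B cell-like cells. For those classes the direction of the call was thus largely given beforehand.

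The 2 adventitial-like states differed from each other in 3 of the members. This contrast was chosen after the clusters were seen, and 5.09% of the genes tested were called higher in F6 and 10.4% lower. Cd34 was 514, 477, 491, 401 and 524 CPM in F5 and 879, 943, 1198, 659.7 and 1004 CPM in F6, in collections 1A, 1B, 2A, 2B and 2C, with no overlap. It was higher in F6 by 0.73 ± 0.16 (edgeR adjusted p = 0.00013). Ly6a was 341, 400.0, 396, 316 and 455 CPM in F5 and 758, 496, 793, 777 and 1024 CPM in F6, again with no overlap, a difference of 0.75 ± 0.17 (edgeR adjusted p = 0.00021). Pdpn went the other way, at 285, 439, 481, 523 and 346 CPM in F5 and 218, 223.5, 178, 235 and 307 CPM in F6, which overlapped between collections, and was lower in F6 (-1.005 ± 0.20, edgeR adjusted p = 4.1e-05). Pi16 (-0.04 ± 0.18, edgeR adjusted p = 0.92), Cd81 (0.20 ± 0.23, edgeR adjusted p = 0.63) and Thy1 (0.11 ± 0.41, edgeR adjusted p = 0.90) were not called. F5 was led by Gfpt2, Has1, Ugdh, Ptx3 and Ccl7, and F6 by Gas1, Pcolce2 and Cilp, with Pi16 among its 10 leading genes. The median cell had 1638 UMIs in F5 and 1426 in F6. F5 and F6 were also apart at resolution 1.2, and formed 1 cluster of 559 to 607 cells in the 3 other clusterings.

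Each state was also set against the mean of the other 7, which gave 17 higher and 11 lower calls among the 48 combinations of member and state tested, Dpp4 not being among them. The share of all genes called higher was 5.5% in F1, 11.8% in F2, 11.9% in F3, 16.4% in F4, 21.3% in F5, 7.22% in F6 and 3.31% in F8. The share called lower was 4.86% in F1, 10.2% in F2, 1.72% in F3, 8.37% in F4, 14.2% in F5, 5.62% in F6 and 5.87% in F7. Cd34 was called in all 8 states: higher in F6 (2.22), F5 (1.39), F8 (1.28), F2 (1.06) and F1 (0.93), and lower in F3 (-1.03), F7 (-2.02) and F4 (-3.81). The F3 call was lost at resolution 0.5 (0.46) and with UMIs split between clustering and sums (-0.37), and the F1 call at resolution 1.2 (0.40). Thy1 was called higher in F8 (2.28), F2 (1.34) and F1 (0.85) and lower in F4 (-3.30). Its F1 call was lost with DESeq2 (0.83), with members kept in the clustering (0.76), at resolution 1.2 (0.18) and without collection 1A (0.77). Ly6a was called higher in F2 (0.91) and F6 (0.49) and lower in F1 (-0.52), F3 (-0.48), F4 (-0.38) and F5 (-0.37). At resolution 0.5 the F1 call turned, with Ly6a called higher (0.47, edgeR adjusted p = 0.00011), and it was lost with members kept in (-0.38) and with split UMIs (-0.21). In F3 it was lost at resolution 0.5 (-0.19), with split UMIs (-0.25) and without collection 1A (-0.38), and in F4 with DESeq2 (-0.39), with no filter on low counts (-0.36) and without collection 2A (-0.32). Pdpn was called higher in F3 (0.63), F5 (0.55) and F4 (0.47) and lower in F6 (-0.60). The F3 call was lost with split UMIs (0.40), and the F4 call with DESeq2 (0.46), at a limit of 5% mitochondrial UMIs (0.43) and without collection 1A (0.30). Cd81 was called higher in F6 (2.73) and F5 (2.50) and lower in F2 (-1.27), and Pi16 higher in F5 and F6 and lower in F7. The Cd81 call in F2 was lost with members kept in (-0.67), at resolution 0.5 (-0.48) and with split UMIs (-0.18). The Ly6a and Pdpn calls in F5 and F6 ended where the clustering joined those 2 states, at values of 0.082 to 0.21 for Ly6a and 0.035 to 0.24 for Pdpn. The lower call of Ly6a in F5 was also lost with DESeq2 (-0.33), with no filter on low counts (-0.26), at the 5% limit (-0.31) and without collection 1A (-0.32). That of Pdpn in F6 was lost with DESeq2 (-0.59), at the 5% limit (-0.58) and without collection 1B (-0.51). Of 25 of these calls that could be followed by their fold, 12 were called in the same direction in every refit with a test. Among the fibroblast states as clustered here, the pair of Cd34 with Thy1 was called higher in F1, F2 and F8, and the set of Cd34, Cd81 and Pi16 in F5 and F6.

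Blood endothelium was the main other source of 3 members. Of the 2259 Cd34 UMIs, 74.5% came from fibroblast-like and 19.6% from blood endothelial-like cells. Of the 3566 Ly6a UMIs, 69.9% and 23.6% did. Cd81 was divided more widely, with 26.5% of its 1635 UMIs in blood endothelial-like cells, 25.1% in fibroblast-like cells and 24.5% in macrophage-like cells. Cd34 stood at 303, 256, 327, 230.0 and 302 CPM in blood endothelial-like cells in collections 1A, 1B, 2A, 2B and 2C, which overlapped the other fibroblasts and lay below every value of the adventitial-like cells. Cd81 there stood at 271, 291, 286, 254 and 283 CPM, overlapping the adventitial-like cells. Ly6a there stood at 496, 531, 549, 607 and 627 CPM, overlapping both fibroblast groups. Pi16 (2.10 and 4.99 CPM), Thy1 (6.30 and 9.98 CPM) and Pdpn (13.6 and 11.6 CPM) were at or near the levels of classes such as B cell-like cells.

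In the test of fibroblast-like against blood endothelial-like cells, fitted on sums of 10 classes, 4 of 7 members were called higher and 1 lower, where 28.8% of 6930 genes were called higher and 27.4% lower. Pi16 (5.35 ± 0.41, edgeR adjusted p = 2.1e-31), Pdpn (4.77 ± 0.24, edgeR adjusted p = 1e-63) and Thy1 (3.37 ± 0.37, edgeR adjusted p = 9.2e-18) were higher in fibroblast-like cells. Pi16 passed the filter of the class fit only through fibroblast-like cells. Its calls in that fit, also against lymphatic endothelial-like cells, thus had a direction given beforehand. Cd34 was higher by 0.48 ± 0.13 (edgeR adjusted p = 0.00073), and that call was lost with DESeq2, with no filter on low counts, and without collection 1A (0.44) or 2B (0.40). Cd81 was lower by 1.51 on the log2 scale (-1.51 ± 0.15, edgeR adjusted p = 1.4e-19). Ly6a (0.10 ± 0.12, edgeR adjusted p = 0.50) and Dpp4 (1.84 ± 1.21, edgeR adjusted p = 0.19, on 1 UMI in blood endothelial-like cells) were not called. Blood endothelial markers summed to 120 and 126 CPM in adventitial-like cells and to 131 and 114 CPM in the other fibroblasts, ranges that overlap, and to 7288 and 8295 CPM in blood endothelial-like cells.

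Lymphatic endothelial-like cells had another set. Thy1 stood there at 917, 585, 879, 457 and 581 CPM in collections 1A, 1B, 2A, 2B and 2C, above both replicates of every fibroblast state, and 34.7% of its 819 UMIs came from these 166 cells. Pdpn stood at 275, 419, 326, 436 and 265 CPM, within the range of fibroblasts. Cd34 (36.1 and 58.9 CPM in the 2 replicates) and Ly6a (40.6 and 35.3 CPM) were low and Pi16 had 2 UMIs. Against lymphatic endothelial-like cells, 3 members were called higher in fibroblast-like cells, where 19.1% of genes were, and 1 lower, where 13.8% were. Ly6a (4.07 ± 0.28, edgeR adjusted p = 1.2e-37), Cd34 (3.25 ± 0.28, edgeR adjusted p = 3.5e-26) and Pi16 (4.89 ± 0.59, edgeR adjusted p = 2.9e-14) were the higher ones and Thy1 the lower one (-2.97 ± 0.22, edgeR adjusted p = 8.6e-35). Pdpn (0.24 ± 0.17), Cd81 (0.15 ± 0.29) and Dpp4 (0 UMIs in lymphatic endothelial-like cells) were not called. Between the endothelial classes, Thy1 (6.34 ± 0.33) and Pdpn (4.53 ± 0.31) were higher in lymphatic cells, where 16.8% of genes were called higher, and Ly6a (-3.96 ± 0.29), Cd34 (-2.77 ± 0.30) and Cd81 (-1.66 ± 0.26) lower, where 20.8% were.

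Blood endothelium was divided into 5 sub-clusters, of which 3 were named. In the capillary-like sub-cluster (180 cells) Cd34 was 297 and 265 CPM in the 2 replicates, in the arterial-like one (171 cells) 225 and 346 CPM, and in the venular-like one (34 cells) 217 and 293 CPM. These ranges overlapped. Ly6a was 419.8 and 462 CPM in capillary-like, 1026 and 1109 CPM in arterial-like and 295 and 612 CPM in venular-like cells. By replicate only the arterial-like values stood clear of the other named sub-clusters. Over the 5 collections the arterial-like range (878 to 1177 CPM) overlapped the venular-like one (123 to 1074 CPM). Cd81 was 341 and 250.1 CPM, 439 and 394 CPM, and 165 and 159.6 CPM in the same order, with no overlap between the 3 by replicate. Over the 5 collections the capillary-like range (144 to 402 CPM) overlapped the arterial-like (243 to 527 CPM) and the venular-like one (123 to 237 CPM). The venular-like value of replicate 2 rests on 6 Cd81 UMIs. The venular-like cells numbered 21 and 13 in the replicates, under the minimum of 20, so no test was made.

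Outside fibroblasts and endothelium, Cd81 was the widest member. Macrophage-like cells had 331 and 457 CPM, enteric glia-like cells 261 and 216 CPM and dendritic cell-like cells 117 and 209 CPM. Against the mean of the other classes it was called higher in macrophage-like (1.82 ± 0.14, edgeR adjusted p = 9.4e-32; 26.1% of genes called higher), blood endothelial-like (1.31 ± 0.13, edgeR adjusted p = 6.9e-19; 30.7%) and glia-like cells (1.02 ± 0.19, edgeR adjusted p = 1e-06; 23.6%). Fibroblast-like cells as a whole were called slightly lower for Cd81 (-0.37 ± 0.14, edgeR adjusted p = 0.018; 12.4% called lower), while F5 and F6 alone reached 259 and 290.5 CPM. Thy1 was called higher in T, NK or innate lymphoid-like cells (2.33 ± 0.27, edgeR adjusted p = 7.5e-16; 23.1%), where it stood at 128 and 209.8 CPM. Macrophage markers summed to 34.4 and 64.1 CPM in adventitial-like cells and to 36.1 and 57.6 CPM in the other fibroblasts. Whether RNA of other classes added to Cd81 in adventitial-like cells was not tested.

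**Figure D3:**
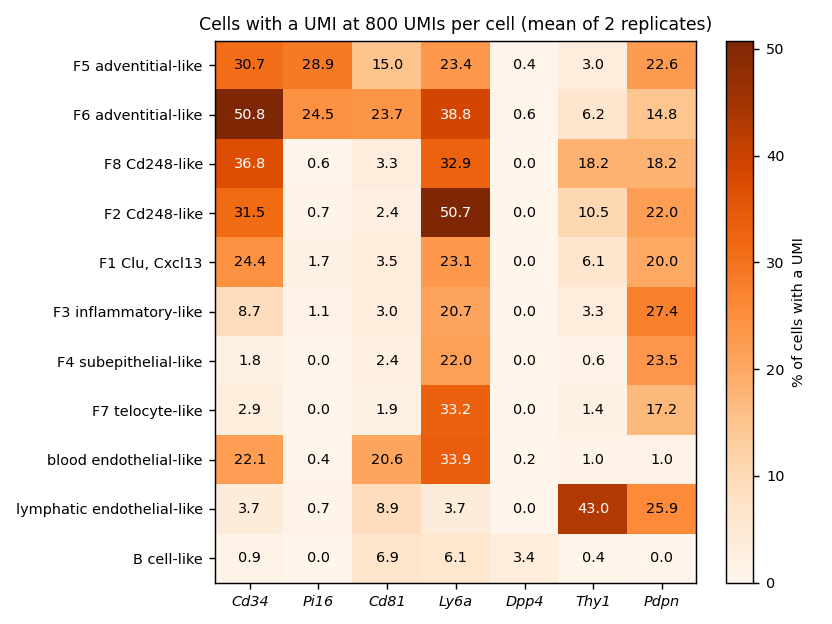
Share of cells (%, colour and printed value, mean of 2 replicates) with at least 1 UMI of each member after each cell was thinned to 800 UMIs, in the 8 fibroblast states, 2 endothelial classes and B cell-like cells. Pi16 is detected in 28.9% and 24.5% of F5 and F6 and in at most 1.71% of the other rows, and Thy1 is detected in 43.0% of lymphatic endothelial-like cells.

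Single cells were compared at equal depth, each thinned to 800 UMIs and shallower cells left out, which kept 502 of 598 adventitial-like cells and 2006 of 2525 other fibroblasts. Cd34 was detected in 38.8 ± 0.89% of adventitial-like cells (SD, n = 2 replicates), Pi16 in 27.1 ± 6.90% and Cd81 in 18.5 ± 2.96%. In the other fibroblasts the shares were 18.6 ± 1.82%, 0.89 ± 0.17% and 2.91 ± 0.56%. Without thinning they were 55.0%, 36.9% and 33.4% against 25.7%, 1.52% and 4.46%. Ly6a was detected in 29.6% of both groups, Pdpn in 19.4% and 22.0%, and Thy1 in 4.27% and 6.20%. Dpp4 was detected in 2 of 502 adventitial-like cells and in 0 of 2006 other fibroblasts, which allows a share of cells with a UMI of up to 0.150% at this depth and sets no limit on cells that express it. In B cell-like cells, which should lack stromal transcripts, Cd34 was detected in 2 of 153 cells, Thy1 in 1, and Pi16 and Pdpn in 0, which allows a share of cells with a UMI of up to 1.96%. The Cd34 share in F4 (6 of 333 cells, 1.80%) was near that background. Pi16 was detected in 18 of 2006 other fibroblasts (0.897%, exact 95% interval 0.533 to 1.41%). In the named classes other than fibroblasts it was detected in 9 of 2249 cells (0.400%, 0.183 to 0.758%). These intervals overlap, which does not show the shares to be alike, and they cover counting error only. In the summed cells of the 2 replicates Pi16 stood at 9.17 and 13.7 CPM in the other fibroblasts. In those other classes it stood at 4.09 and 5.47 CPM. Median depth was 1035 UMIs in B cell-like cells and 1560.5 in adventitial-like cells before thinning.

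At this depth most cells showed few members even where all were present in the sum. Adventitial-like cells had a mean of 1.37 members detected, other fibroblasts 0.80, blood endothelial-like cells 0.79, lymphatic endothelial-like cells 0.86 and B cell-like cells 0.19. Of the adventitial-like cells, 13.7% had 3 or more members and 21.9% had none, against 3.79% and 41.9% of the other fibroblasts. F6 had more members per cell than F5 in both replicates, at 1.48 and 1.71 against 1.18 and 1.30. The most in any thinned cell was 6, in F5.

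Co-detection was measured as the number of cells with a UMI of both genes over the number given by the product of their shares, within each collection. With all 2508 fibroblast-like cells mixed, Pi16 and Cd81 were found in the same cell 26 times against 9.32 (ratio 2.79), Cd34 and Pi16 64 times against 34.1 (1.88), and Cd34 and Cd81 57 times against 33.9 (1.68). Each of these 3 ratios was above 1 in all 5 collections. When the product was taken within each state, the ratios were 1.02, 1.15 and 1.16. Within the 502 adventitial-like cells alone they were 1.01 for Pi16 and Cd81, 1.12 for Cd34 and Pi16 and 0.96 for Cd34 and Cd81. For Cd34 with Cd81 the within-state ratio joins that value with 1.84 in the other fibroblasts, where 20 cells had both against 10.9 and the ratio was above 1 in 5 of 5 collections (1.32 to 1.49 at the other depths tried, above 1 in 3 or 4 of 5). Cd34 with Thy1 went from 1.37 to 1.04 and Cd34 with Ly6a from 1.23 to 1.09 in the same step. These ratios are descriptions, since cells of 1 collection are not replicates.

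**Figure D4:**
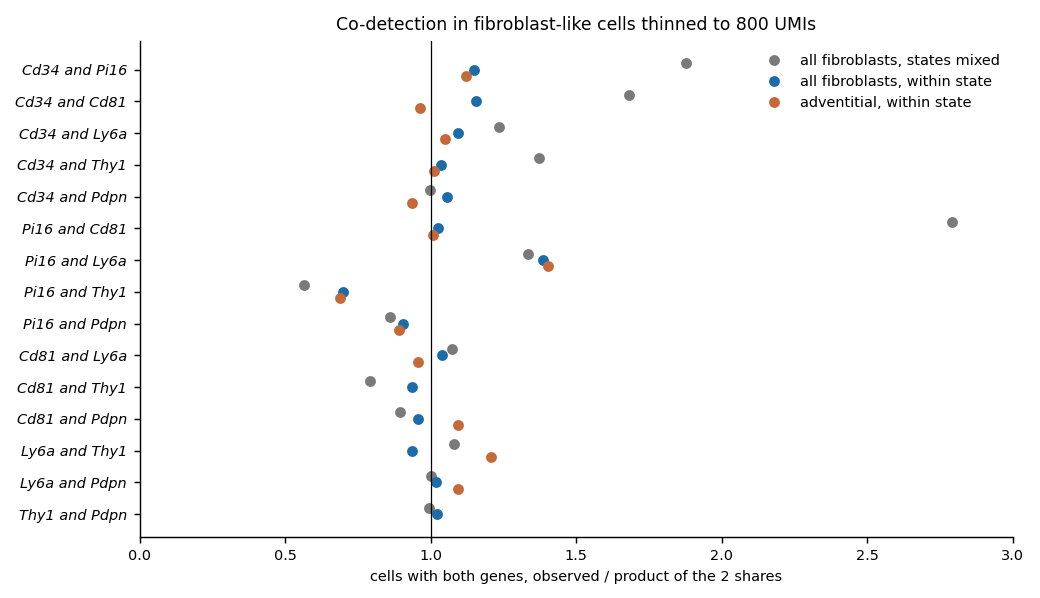
Ratio of cells with both genes to the number given by the product of their shares (horizontal axis), for 15 pairs of members in fibroblast-like cells thinned to 800 UMIs; pairs expected in fewer than 5 cells are not drawn. Grey points mix the states, blue points take the product within each state and orange points do so in F5 and F6 only; Pi16 with Cd81 moves from 2.79 to 1.02 once states are kept apart, and Pi16 with Ly6a stays at 1.38.

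Pi16 with Ly6a kept its ratio when states were kept apart. In adventitial-like cells 54 cells had both against 38.5 (1.40), with ratios of 1.60, 1.25, 1.84, 0.98 and 1.33 in collections 1A, 1B, 2A, 2B and 2C. Pi16 with Thy1 lay on the other side, with 4 cells against 5.82 (0.69). In blood endothelial-like cells Cd81 with Ly6a gave 43 cells against 33.4 (1.29, above 1 in 5 of 5 collections), Cd34 with Ly6a 37 against 35.5 (1.04) and Cd34 with Cd81 18 against 21.6 (0.83). In lymphatic endothelial-like cells Thy1 with Pdpn gave 14 cells against 15.1 (0.93).

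Read as gates, the members separated adventitial-like cells to different degrees. Of 710 thinned cells with a Cd34 UMI, 195 (27.5%) were adventitial-like, 371 (52.3%) other fibroblasts and 105 (14.8%) blood endothelial-like. Of 161 cells with a Pi16 UMI, 134 (83.2%, exact 95% interval 76.5 to 88.6%) were adventitial-like. Of 64 cells with both, 58 (90.6%, 80.7 to 96.5%) were adventitial-like and the other 6 were other fibroblasts, with no endothelial cell among them. Without thinning 169 cells had both, of which 144 (85.2%) were adventitial-like, 19 other fibroblasts, 2 blood endothelial-like, 2 macrophage-like, 1 glia-like and 1 plasma cell-like. Cd81 alone gave 92 adventitial-like cells of 460 (20%), and Pi16 with Cd81 gave 25 of 28 (89.3%, 71.8 to 97.7%). Cd34, Pi16 and Cd81 together were found in 11 thinned cells, 10 of them adventitial-like, and in 76 cells without thinning, 68 of them (89.5%) adventitial-like. Thy1 with Pdpn pointed elsewhere: of 48 cells, 26 were other fibroblasts, 14 lymphatic endothelial-like and 5 adventitial-like. Intervals cover counting error only.

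Genes related to the members were kept out of the clustering in 7 lists of 70 genes, and described by counts in the adventitial contrast beside a median log2 fold change of -0.02 over all genes tested. Of all genes tested in that contrast, 17.8% were called higher and 14.4% lower. Among tetraspanins and partners, 10 of 14 were tested, 2 were called higher and 4 lower, with a list median of -0.22. Cd82, another tetraspanin, was lower by 3.04 on the log2 scale (-3.04 ± 0.35, edgeR adjusted p = 9.6e-15; 10.2 ± 6.73 against 112 ± 3.97 CPM), opposite to Cd81. Igsf8, an immunoglobulin-domain partner of Cd81, was higher (1.47 ± 0.27, edgeR adjusted p = 1.1e-06), and Tspan4 was lower (-1.04 ± 0.24, edgeR adjusted p = 0.00018). Of the Dpp4 family with its substrate and binding protein, 5 of 9 were tested, 2 called higher and 1 lower. Fap, the fibroblast activation protein and closest relative of Dpp4, was higher (2.36 ± 0.35, edgeR adjusted p = 3.2e-09; 55.2 against 17.2 CPM), Dpp7 was higher (0.76 ± 0.30, edgeR adjusted p = 0.042), and the substrate Cxcl12 lower (-1.24 ± 0.10, edgeR adjusted p = 3.8e-24; 310.3 against 921 CPM). Of the CAP family of Pi16, 4 of 6 were tested; Pi15 was higher (81.3 against 17.2 CPM, edgeR adjusted p = 8.5e-19) and Glipr2 lower (-1.27 ± 0.34, edgeR adjusted p = 0.0014).

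In the Ly6 family only Ly6e and Ly6c1 passed the filter of 8 genes. Ly6e was lower (-1.02 ± 0.12, edgeR adjusted p = 3.1e-14) and Ly6c1 higher (0.48 ± 0.13, edgeR adjusted p = 0.002). Of 12 partners of podoplanin and Thy1, 7 were tested. Ezr, which links membrane proteins to actin, was higher (3.30 ± 0.33, edgeR adjusted p = 1.8e-18; 87.2 against 13.1 CPM), its relative Rdx was slightly higher (0.30 ± 0.11, edgeR adjusted p = 0.033) and the hyaluronan receptor Cd44 was lower (-0.59 ± 0.13, edgeR adjusted p = 0.00014). None of the 4 sialomucins and selectins related to Cd34 had enough UMIs in fibroblasts for a test. Of 17 other mesenchymal surface genes, 13 were tested, 6 called higher and 5 lower. Ackr4, an atypical chemokine receptor, had 85.9 CPM against 0.264 CPM (edgeR adjusted p = 3.2e-29), the complement regulator Cd55 was higher (3.04 ± 0.11, edgeR adjusted p = 1.9e-75; 1097 against 316 CPM) and the ectonucleotidase Entpd1 lower (-2.35 ± 0.41, edgeR adjusted p = 4.3e-07). Like Pi16, Ackr4 passed the filter only through F5 and F6, so its direction was given beforehand. Calls in both directions were found in 6 of the 7 lists, where 17.8% of all genes tested were called higher and 14.4% lower. For the Ly6 family they rest on 2 tested genes.

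Likeness of pattern was described by Pearson's r of log2 CPM over 34 sums, 17 groups in each of 2 replicates, among 8306 genes. The sums share libraries and depth, so no p is given. Nearest to Pi16 were Gpr64 (0.93), Ackr4 (0.92) and Pcolce2 (0.90), all 3 at their highest in F5 and F6. Gpr64 had 68.2 and 67.8 CPM there and at most 5.40 CPM in any other group. Nearest to Cd34 were Fmo2 (0.94), Mgp (0.87) and Slit3 (0.87). Fmo2, a flavin monooxygenase, was highest in F6 (1808 CPM), as Cd34 was. It was next in F8 (1360.4 CPM) and stood at 449.7 CPM in blood endothelial-like cells. Ly6a lay nearest to Ly6c1 (0.86), Nav1 (0.82) and Jam2 (0.82), Cd81 to Ppp1r10 (0.85), Kdm6b (0.79) and Fndc3a (0.78), and Pdpn to Fkbp10 (0.90), Timp2 (0.89) and Rnase4 (0.88). Thy1 lay nearest to Il7 (0.77), Igfbp5 (0.76) and Ackr3 (0.74), each highest in lymphatic endothelial-like cells, and Dpp4 to Ccr7, Lmnb1 and P2ry10 (0.85 to 0.85), which are high in dendritic cell-like cells. Between members the largest r were Cd34 with Ly6a (0.77), Cd34 with Pi16 (0.64) and Ly6a with Pdpn (0.61), while Cd34 with Cd81 was 0.06. Macrophage-like and glia-like cells, where Cd81 was high, had 29.5 and 21.4 CPM of Cd34.

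In the GENCODE annotation of GRCm38 the genes lie at chr1:194938819-194961279 for Cd34 (plus strand), chr17:29317680-29330593 for Pi16 (plus), chr7:143052739-143067934 for Cd81 (plus), chr15:74994877-74998031 for Ly6a (minus), chr2:62330073-62412231 for Dpp4 (minus), chr9:44043384-44048579 for Thy1 (plus) and chr4:143267431-143299564 for Pdpn (minus). Exons of Cd34, Pi16, Cd81 and Dpp4 overlap a gene on the opposite strand, and without a stated strand setting reads of such pairs cannot be told apart. The last 300 bases of the Ly6a transcript aligned to 14 other genes, with 83.5% identity to Ly6c1, so Ly6a values carry the uncertainty of a gene family. The same stretch aligned to 2 other genes for Cd81 (70.9% identity to Cd9) and to 1 for Pdpn, and to none for Cd34, Pi16, Dpp4 and Thy1.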

How the data were processed

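The deposited tables hold UMI counts per gene and cell barcode that the authors made for each collection. Per the submitters' processing notes STAR 2.6 and mm10 were used, and the counter and its strand setting are not given in the sources used here. Barcodes with 300 or more genes and at most 10% mitochondrial UMIs were kept. Scrublet marked 23 of 6005 cells (0.383%), under the 0.5% at which such a caller is taken to work. The marked cells were left out, and other doublets may remain. Cells were clustered with scanpy 1.11.5 (Leiden, 2000 variable genes, 30 components, resolution 1 for all cells and 0.8 for fibroblast-like cells) without the 7 members and 70 related genes. For each replicate and each class or state the UMI counts were added up and tested with edgeR 4.0.16 (filterByExpr, TMM, quasi-likelihood, replicate as a block because all classes of a replicate came from the same suspension; threshold 0.05 on the adjusted p), which was also tested on simulated data: 47 of 50 genes changed 2-fold, 50 of 50 changed 4-fold and 28 of 50 lowered to 0.5-fold were recovered, with 8 of 5566 unchanged genes called. The simulated counts had the same dispersion for every gene and no difference between replicates, and only genes above a minimum mean count were changed. Recovery under the spread of the real sums, or in sparser genes, was not tested. The fits for cell classes took classes with 20 or more cells in each replicate. DESeq2 1.42.0 was an alternative. Alternatives covered the size factors, the filters, the clustering, the thinning, the doublet scores and each left-out collection.

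The members, marker genes and gene lists were chosen with earlier results of these data known. Named beside the members were, from each related list, at most the 3 called genes with the largest change in the adventitial contrast, and per member the 3 genes with the highest r of log2 CPM (prior count 2). Ebf1, Has1 and Adamdec1 were named after their values were seen. CPM of droplet UMIs is not adjusted for gene length, so levels are compared between cells and not between genes. Total UMIs were 3345732, 2756653, 2027029, 1636550 and 1763871 in collections 1A, 1B, 2A, 2B and 2C.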

Additional observations from a re-analysis of the deposited data

How the results depend on the processing

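Against blood endothelium the count of members called higher fell from 4 to 3 with DESeq2, with no filter on low counts, and without collection 1A or 2B, each time by the loss of Cd34, and 1 was called lower in every refit with a test. Against lymphatic endothelium 3 were called higher and 1 lower in every such refit. In the adventitial contrast 3 rose to 4 at resolution 0.5 (Thy1) and with no filter (Dpp4), and 0 were called lower throughout. Without the replicate block the counts were again 4, 1, 3, 1, 3 and 0, and 17 higher and 11 lower over states, so the block changed no count. The lower calls over states fell to 7 with the members kept in the clustering and to 4 with UMIs split between clustering and sums. Of 745 refits of 43 fold changes, 686 kept direction and side of the threshold, 38 lost the call, 1 gained it and 20 changed sign. Pdpn in the adventitial contrast, not called, was 0.010 with DESeq2, 0.0077 with RLE factors, 0.015 with no filter, 0.0068 without the cells carrying mesothelial markers, 0.24 with members kept in, 0.094 and 0.055 at resolutions 0.5 and 1.2, and 0.035 with split UMIs. Leaving out 1 collection or biological replicate gave -0.13 to 0.13 for it, -0.049 to 0.21 for Ly6a against blood endothelium (-0.041 without biological replicate 2) and -0.072 to 0.33 for Cd81 against lymphatic endothelium, which was -0.037 with sums per collection. None of these that had a test was called. Fits without 1 biological replicate, which gave the -0.13 and 0.13 of Pdpn and the -0.041 of Ly6a, had no test. At resolution 0.5 Ly6a in F1 was 0.47, called higher, and Cd34 in F3 0.46, not called. Ly6a in F5 was 0.21 (members kept in), 0.17 (resolution 0.5) and 0.082 (split), and Pdpn in F6 0.24, 0.094 and 0.035 in that order, where F5 and F6 are 1 cluster. Within-state ratios of pairs moved with depth: Cd34 with Cd81 was 1.24 unthinned, Pi16 with Cd81 0.62 and Cd34 with Ly6a 1.29 at 500 UMIs, all in adventitial-like cells, and Cd34 with Ly6a in blood endothelium 0.89 at 500 UMIs and 1.19 unthinned. The cause was not tested. Depth limits Dpp4 most, with 13 UMIs in fibroblast-like cells.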
